A study of Mus musculus with 10 samples.

Results

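The genes described here are 34 genes of antioxidant defence: the sensor and the transcription factor of the NRF2 response, their best known targets, and the enzymes and carriers of the glutathione, thioredoxin, peroxiredoxin, superoxide dismutase and metallothionein systems. They were chosen by name from the symbols of the count table, and all 34 were found among its 15883 genes. The RNA came from the biceps femoris, a muscle of the hindlimb, and 5 wild-type mice were compared with 5 mice transgenic for Zfp407. All 10 mice were C57BL/6J males aged 5 weeks that ate normal chow and were fasted for 16 hours. Zfp407 encodes a zinc finger protein, and the promoter that drives the transgene is not given in the sources used here. The question put to the data is how these transcripts differ between muscle that overexpresses Zfp407 and muscle that does not.

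Muscle fibres make superoxide and hydrogen peroxide in their mitochondria and at membrane oxidases, and they remove them with enzymes that draw on NADPH. KEAP1 holds the transcription factor NRF2, the product of Nfe2l2, at a low level. Oxidants and electrophiles modify KEAP1, and NRF2 then accumulates and binds antioxidant response elements near genes of glutathione synthesis, thioredoxin reduction and quinone reduction. Glutathione serves peroxidases and transferases, and thioredoxin reduces peroxiredoxins. Metallothioneins bind zinc and copper and can take up oxidants through their cysteines. In fasted muscle, Mt1, Mt2 and Txnip are known to respond to glucocorticoids and to glucose supply.

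Levels are given as CPM, which are counts scaled to the TMM-adjusted library total. Libraries are numbered 1 to 5 within their group as in the table, whose columns do not name the mouse. The wild-type libraries held 13530367 to 17814900 counts each and the transgenic libraries 15162400 to 19047834, and the 34 genes had between 23 and 14965 counts per library. The tissue label was checked against 15 skeletal muscle markers, with none past the test. They took 17.2% to 27.5% of the raw counts in wild-type mice and 20.6% to 24.1% in transgenic mice. In CPM, which unlike these shares are TMM-adjusted, they summed to 211814 to 290624 in wild-type mice. The sum was 180015 to 216834 CPM in transgenic mice, so the ranges overlapped but lay lower there. The skeletal actin and muscle creatine kinase genes Acta1 and Ckm were at 14968 ± 1621 and 8711 ± 1058 CPM (SD, n = 5) in wild-type mice. Zfp407 itself was between 20.95 and 25.7 CPM in wild-type mice and between 317 and 616 CPM in transgenic mice. Of the marker lists of other cell types, only the hepatocyte list had shares that did not overlap between the groups. Of 29 hepatocyte markers, 26 rose in transgenic mice, and their summed share was 0.0217% to 0.0318% of counts in wild-type mice against 0.0682% (library 3) to 0.754% (library 5) in transgenic mice. Albumin, Alb, was between 41.4 and 116 CPM in wild-type mice and between 197 and 3038 CPM in transgenic mice. The 18 leukocyte markers took 0.0131% to 0.0249% in wild-type mice and 0.0187% to 0.0488% in transgenic mice, where Cd74, the invariant chain of MHC class II, passed the test. The 7 erythroid markers took 0.00910% to 0.0175% and 0.0115% to 0.0341%, with none past the test. No marker of these lists was at 0 in all libraries. Whether these transcripts came from other cells or from the muscle fibres themselves was not tested.

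Gpx1, the cytosolic and mitochondrial glutathione peroxidase, was the only gene of the 34 that passed the test, and it rose in transgenic mice. All 34 genes passed the filter on low counts. With edgeR's quasi-likelihood test and Benjamini-Hochberg adjustment over 13338 genes, 1 of 34 was higher and 0 were lower at an adjusted p of 0.05, while 4.28% of all genes tested were higher and 1.05% lower. The count of 1 is near that background and is no result about the 34 genes as a set. At an unadjusted p under 0.05 there were 6 of the 34, against 18.1% of all genes: Gpx1, Hmox1, Gstt1, Prdx1 and Prdx6 with higher and Sod2 with lower transgenic levels. DESeq2 called 1 of the 34, Gpx1, against 7.90% of all genes tested. The authors' deposited table also calls Gpx1 alone, against 7.29% of its 15883 genes.

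The log2 fold changes of the other 33 ran from -0.33 (Nqo1) to 0.92 (Mt2), and none passed the test. The median log2 fold change of the 34 genes was 0.08, with 21 above and 13 below 0, beside a median of 0.003 over all genes tested. For 30 of the 34 genes the 95% interval of the log2 fold change lay within 1 unit of 0, so a 2-fold change in either direction was outside it. The exceptions were Gpx1, Hmox1, Mt1 and Mt2. Wild-type and transgenic libraries did not overlap for 1 gene, Gpx1, in the higher direction, where 5.14% of all genes did so, and for 0 genes in the lower direction, where 2.90% did so.

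**Figure D1:**
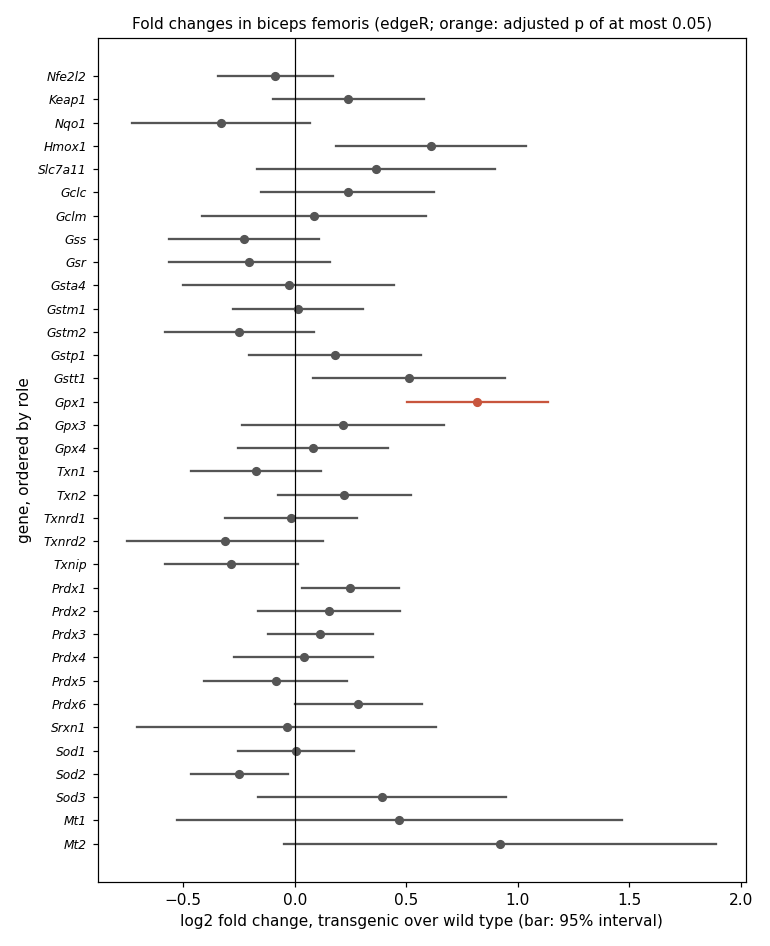
The log2 fold change of each of the 34 genes, transgenic over wild type, with its 95% interval, in order of role, with orange for an adjusted p of at most 0.05. Gpx1, at 0.82, is the only orange gene, and the widest intervals are those of Mt1 and Mt2.

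Single libraries stood apart over many of these genes. Transgenic library 3 had the highest level of its group in 21 of the 34 genes, and it also had the highest Ckm and Acta1 of all libraries, at 13646 and 25249 CPM. Transgenic library 2 had the lowest level of its group in 16 of the 34. Wild-type library 2 had the highest level of its group in 16 of the 34, Nfe2l2, Hmox1, Gclm, Gsr, Txnrd1, Srxn1, Mt1 and Mt2 among them. How often each library was highest or lowest over all genes tested was not counted. These counts therefore describe the libraries and are no result about the 34 genes. The median coefficient of variation of the 34 genes was 14.0% in wild-type mice and 19.3% in transgenic mice, beside 15.4% and 19.9% over all genes tested.

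**Figure D2:**
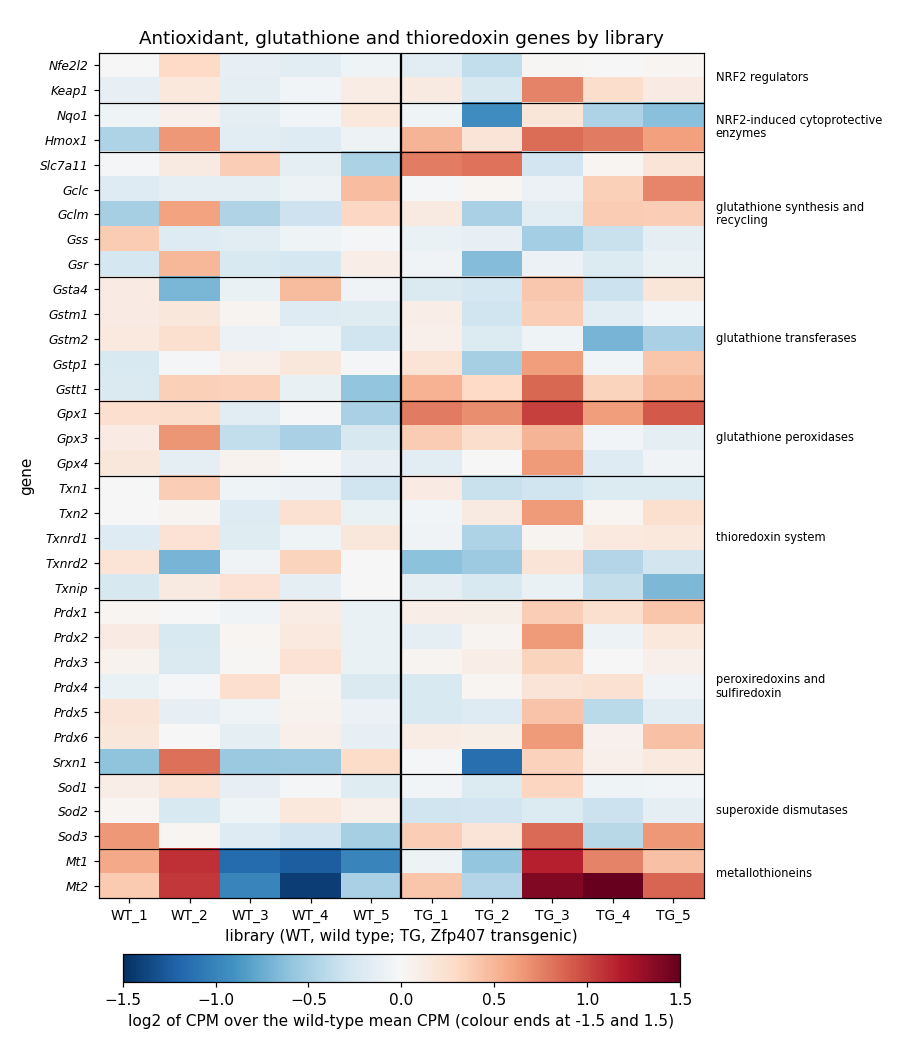
Each row is a gene and each column a library (WT, wild type; TG, transgenic), with the colour giving the log2 of CPM over the wild-type mean CPM, blue below and red above it. Gpx1 is red in all 5 transgenic columns, while Mt1 and Mt2 change together from library to library in both groups.

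Neither regulator of the NRF2 response passed the test. Nfe2l2 was at 50.01, 61.7, 46.0, 44.6 and 47.9 CPM in wild-type libraries 1 to 5 and at 44.99, 38.7, 50.7, 50.1 and 51.0 CPM in transgenic libraries 1 to 5. The ranges overlapped, with wild-type library 2 highest and transgenic library 2 lowest. For Nfe2l2 the log2 fold change was -0.09 ± 0.12 (SE, adjusted p = 0.777 by edgeR), with a 95% interval from -0.35 to 0.17. Keap1 was at 38.8, 47.2, 38.7, 41.1 and 45.7 CPM in wild-type mice and at 46.4, 35.8, 70.8, 50.8 and 46.1 CPM in transgenic mice. Its transgenic values included both the lowest and the highest of the 10 libraries, the highest in library 3. The log2 fold change of Keap1 was 0.24 ± 0.16 (SE, adjusted p = 0.471 by edgeR), with an interval from -0.10 to 0.58. These are transcript levels, while the response is set largely by the stability of the NRF2 protein, which was not measured.

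Of the classical NRF2-induced enzymes, Nqo1 reduces quinones and Hmox1 breaks down heme. Nqo1 was at 9.69, 10.7, 9.21, 9.83 and 11.3 CPM in wild-type mice and at 9.68, 5.31, 11.5, 7.37 and 6.56 CPM in transgenic mice. Transgenic libraries 2, 4 and 5 lay below every wild-type library, and transgenic library 3 lay above every one. For Nqo1 this gave a log2 fold change of -0.33 ± 0.18 (SE, adjusted p = 0.381 by edgeR), with an interval from -0.73 to 0.07. Hmox1 was at 5.43, 11.8, 6.66, 6.57 and 7.15 CPM in wild-type mice and at 10.7, 8.57, 13.5, 12.9 and 11.5 CPM in transgenic mice. All transgenic libraries lay above 4 of the 5 wild-type libraries, and wild-type library 2 lay within their range. The mean was 7.52 ± 2.46 CPM (SD, n = 5) in wild-type mice and 11.4 ± 1.95 CPM (SD, n = 5) in transgenic mice, with a log2 fold change of 0.61 ± 0.20 (SE, adjusted p = 0.102 by edgeR). The adjusted p was 0.0587 with DESeq2 and 0.0724 in the authors' deposited table. Without wild-type library 2 the log2 fold change was 0.79 ± 0.16 (SE) and the edgeR adjusted p was 0.0231, while over all libraries left out in turn it ran from 0.0231 to 0.239. Hmox1 is strongly expressed in macrophages, and the part that the leukocyte markers above play in its values was not tested. In bulk tissue, more cells of a type and more RNA per cell cannot be told apart.

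The letters of the antioxidant response element were sought in the promoters of the 34 genes, because Nqo1, Hmox1, Gclc, Gclm, Txnrd1, Srxn1 and Prdx1 are known as NRF2 targets. The core TGACNNNGC was searched on both strands from 250 bases before to 50 bases after each RefSeq gene start (GRCm38.p6). Entries were matched for 28 of the 34 genes, all but Hmox1, Gclc, Gsr, Gsta4, Prdx6 and Sod3, which were not searched, and 7 of the 28 (25%) held the core, as did 14% of all 27025 genes with an entry and 12.4% of all 32851 promoters. The 7 genes were Gclm, Srxn1, Txnrd1, Prdx1, Nfe2l2, Sod1 and Mt2. None of these 7 passed the test between the groups. The matches are shown with 10 flanking bases, 5′ to 3′ on the strand of the gene, with the core in capitals:
Gclm, chr3:122245413-122245441, plus strand: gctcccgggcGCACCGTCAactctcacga
Srxn1, chr2:152105542-152105570, plus strand: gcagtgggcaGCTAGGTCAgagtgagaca
Txnrd1, chr10:82859104-82859132, plus strand: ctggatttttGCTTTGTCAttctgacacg
Prdx1, chr4:116685456-116685484, plus strand: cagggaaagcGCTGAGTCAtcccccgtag
Nfe2l2, chr2:75704885-75704913, minus strand: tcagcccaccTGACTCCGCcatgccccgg
Sod1, chr16:90220696-90220724, plus strand: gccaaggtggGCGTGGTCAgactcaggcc
Mt2, chr8:94172529-94172557, plus strand: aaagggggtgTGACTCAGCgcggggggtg
In Nfe2l2 and Mt2 the core reads along the gene, and in the other 5 it reads along the opposite strand. A match describes letters in this window and not a bound site, and many known elements lie farther from the start.

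Glutathione is made from cystine, glutamate and glycine, and none of its 5 genes passed the test. Slc7a11, the cystine importer, was between 1.66 and 2.997 CPM in wild-type mice and between 1.90 and 4.05 CPM in transgenic mice. Gclc and Gclm are the catalytic and modifier subunits of glutamate-cysteine ligase, the rate-limiting step. Gclc was between 10.6 and 16.5 CPM in wild-type mice and between 11.3 and 20.1 CPM in transgenic mice, with library 5 highest in each. Gclm was between 25.7 and 55.2 CPM in wild-type mice and between 26.0 and 47.5 CPM in transgenic mice. Gss, which adds glycine, was between 4.32 and 6.46 CPM and between 3.48 and 4.62 CPM. Gsr, which reduces oxidised glutathione with NADPH, was between 23.9 and 40.3 CPM and between 18.2 and 27.7 CPM. The log2 fold changes of these 5 genes lay between -0.23 (Gss) and 0.37 (Slc7a11), with edgeR adjusted p from 0.486 to 0.894. All 5 intervals lay within 1 log2 unit of 0. Gclm and Gss overlap other tested genes (Gm17494 and Acss2), as does Gsr (Gm24727), and reads there may be shared in an unknown way.

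Glutathione transferases join glutathione to electrophiles, and none of the 5 listed here passed the test. Gstm1 was between 53.5 and 69.1 CPM in wild-type mice and between 49.97 and 79.7 CPM in transgenic mice, with a log2 fold change of 0.01. Gstm2 was between 14.9 and 21.5 CPM and between 11.2 and 19.2 CPM, with a log2 fold change of -0.25. Gsta4, which handles the lipid peroxidation product 4-hydroxynonenal, was between 2.63 and 5.86 CPM and between 3.36 and 5.57 CPM. Gstt1 was at 2.91, 4.32, 4.27, 3.12 and 2.24 CPM in wild-type mice and at 4.84, 4.14, 6.14, 4.25 and 4.76 CPM in transgenic mice. The ranges overlapped, since transgenic libraries 2 and 4 lay below the highest wild-type library. Its log2 fold change was 0.51 ± 0.20 (SE, adjusted p = 0.187 by edgeR). Gstp1 was between 11.8 and 15.6 CPM and between 9.78 and 21.3 CPM. Gstp1 has a near-identical copy, Gstp2, whose log2 fold change was -0.83 ± 0.26 (SE, adjusted p = 0.0963 by edgeR). The counting could split reads between these copies, and together they reached 23.0 ± 3.20 CPM in the wild-type and 20.9 ± 6.33 CPM in the transgenic libraries (SD, n = 5 each).

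Glutathione peroxidases reduce hydrogen peroxide and lipid peroxides with glutathione, and Gpx1 rose 1.76-fold. It was at 42.7, 42.9, 32.1, 35.3 and 25.6 CPM in wild-type libraries 1 to 5 and at 61.4, 57.9, 72.6, 55.2 and 67.7 CPM in transgenic libraries 1 to 5. Every transgenic library lay above every wild-type library. The mean was 35.7 ± 7.37 CPM (SD, n = 5) in wild-type mice and 63.0 ± 7.13 CPM (SD, n = 5) in transgenic mice. Gpx1 had a log2 fold change of 0.82 ± 0.15 (SE), with an interval from 0.50 to 1.13 and an edgeR adjusted p of 0.00640. The authors' deposited table gives a log2 fold change of 0.82 and an adjusted p of 5.05e-05. Gpx1 (ENSMUSG00000063856) lies on chromosome 9 from 108338903 to 108340343 on the plus strand of GRCm38, where GENCODE release M21 shows no other tested gene.

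Gpx1 is also abundant in liver and in red blood cells, so the marker values belong beside it. Across the transgenic libraries the hepatocyte share was 0.0822%, 0.137%, 0.0682%, 0.205% and 0.754% in libraries 1 to 5. Library 3, with the lowest of these shares, had the highest Gpx1, and library 5, with the highest share, had the next highest. Without transgenic libraries 4 and 5, the libraries with the highest shares, the log2 fold change of Gpx1 was 0.84 ± 0.18 (SE, adjusted p = 0.0213 by edgeR). Transgenic libraries 1 to 3, kept in that fit, were still above the highest wild-type hepatocyte share of 0.0318%. With the hepatocyte marker level as a covariate the log2 fold change of Gpx1 was 0.88 ± 0.25 (SE). The edgeR adjusted p was 0.158, in a fit that called 75 genes in all. The hepatocyte shares of the groups do not overlap, so this covariate cannot be cleanly told apart from genotype for any gene. The beta-globin gene Hbb-bs was at 54.9, 53.7, 74.1, 37.2 and 27.7 CPM in wild-type mice and at 73.4, 156, 64.6, 41.5 and 37.8 CPM in transgenic mice, with overlapping ranges. The part of hepatocyte, erythroid and leukocyte RNA in the Gpx1 values was not tested. With each library left out in turn, the adjusted p of Gpx1 ran from 0.00931 to 0.0320.

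The other peroxidases did not pass the test. Gpx3, the secreted plasma form, was between 43.2 and 95.2 CPM in wild-type mice and between 54.9 and 85.7 CPM in transgenic mice, with a log2 fold change of 0.22 ± 0.21 (SE, adjusted p = 0.660 by edgeR). Gpx4, which reduces lipid hydroperoxides in membranes and guards against ferroptosis, was between 96.5 and 120 CPM in wild-type mice and between 93.1 and 165 CPM in transgenic mice. Its highest value was again transgenic library 3, and the other 4 transgenic libraries reached at most 106 CPM. The log2 fold change of Gpx4 was 0.08 ± 0.16 (SE, adjusted p = 0.850 by edgeR).

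**Figure D3:**
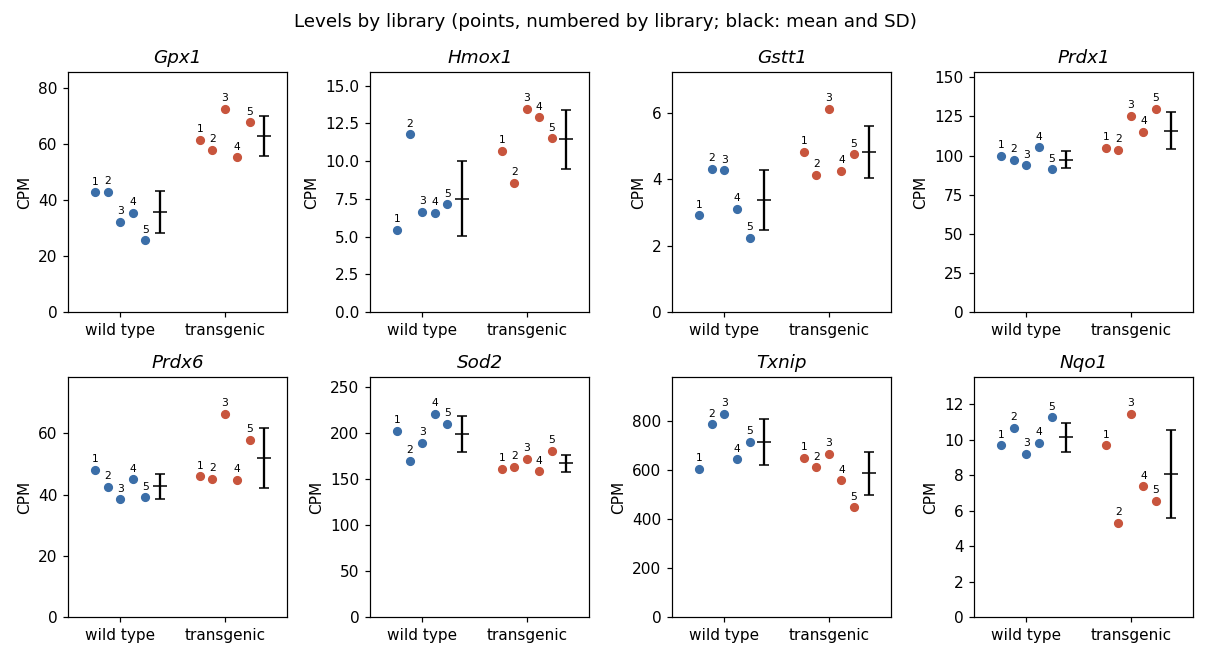
CPM of 8 genes in each library, with points numbered by library and the mean and SD of each group in black. The Gpx1 groups are separate, and the groups of Hmox1, Gstt1, Prdx1, Prdx6, Sod2, Txnip and Nqo1 overlap.

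None of the 5 genes of the thioredoxin system passed the test. Txnip, the thioredoxin-binding protein that also limits glucose uptake and is induced by glucose, was at 606, 787, 831, 645 and 716 CPM in wild-type mice and at 652, 613, 668, 559 and 449 CPM in transgenic mice. Transgenic libraries 4 and 5 lay below every wild-type library, and the other 3 lay within the wild-type range. The mean was 717 ± 93.9 CPM in wild-type mice and 588 ± 88.4 CPM in transgenic mice (SD, n = 5 each), a log2 fold change of -0.29 ± 0.14 (SE, adjusted p = 0.297 by edgeR) and an interval from -0.58 to 0.01. Transgenic libraries 4 and 5 were also those with the highest hepatocyte share. With the hepatocyte covariate, which goes with the group, the log2 fold change of Txnip was 0.10 ± 0.20 (SE, adjusted p = 0.858 by edgeR). The part of hepatocyte RNA in the Txnip values was not tested. Cytosolic thioredoxin, Txn1, was between 21.2 and 33.7 CPM in wild-type mice and between 20.7 and 28.3 CPM in transgenic mice. Mitochondrial thioredoxin, Txn2, was between 37.0 and 49.3 CPM and between 41.0 and 65.8 CPM. Their NADPH-dependent selenoprotein reductases are Txnrd1 in the cytosol and Txnrd2 in mitochondria. Txnrd1 was between 52.8 and 70.0 CPM and between 43.8 and 67.6 CPM. Txnrd2 was between 4.40 and 9.04 CPM and between 4.67 and 8.16 CPM, with a log2 fold change of -0.31 ± 0.20 (SE, adjusted p = 0.468 by edgeR).

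Peroxiredoxins reduce peroxides with electrons from thioredoxin, and sulfiredoxin, Srxn1, repairs those that are overoxidised. None of these 7 genes passed the test. Prdx1, a cytosolic form, was at 99.8, 97.2, 93.8, 105 and 91.1 CPM in wild-type mice and at 105, 104, 125, 115 and 130 CPM in transgenic mice. The ranges met only at about 105 CPM, where wild-type library 4 lay within the transgenic range. Its log2 fold change was 0.25 ± 0.10 (SE, adjusted p = 0.203 by edgeR), with an interval from 0.03 to 0.47. Prdx6, which uses glutathione rather than thioredoxin, was at 48.2, 42.6, 38.5, 44.96 and 39.2 CPM in wild-type mice and at 46.0, 45.2, 66.4, 44.8 and 57.8 CPM in transgenic mice. Only transgenic libraries 3 and 5 lay above the wild-type range, and the log2 fold change was 0.29 ± 0.13 (SE, adjusted p = 0.274 by edgeR). Prdx2, the other main cytosolic form, was between 43.2 and 56.3 CPM and between 46.2 and 78.9 CPM, and it overlaps Junb and Rnaseh2a.

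The mitochondrial, endoplasmic reticulum and repair members showed the same overlap of the groups. Prdx3, confined to mitochondria, was between 91.7 and 125 CPM in wild-type mice and between 108 and 134 CPM in transgenic mice, with a log2 fold change of 0.11 ± 0.11 (SE, adjusted p = 0.655 by edgeR). Prdx5, found in mitochondria and peroxisomes, was between 39.9 and 49.7 CPM and between 32.9 and 58.7 CPM, and it overlaps Trmt112. Prdx4, of the endoplasmic reticulum, was between 4.19 and 5.83 CPM and between 4.17 and 5.72 CPM. Transgenic library 3 was the highest of its group in Prdx2, Prdx3, Prdx5 and Prdx6. Srxn1 was at 33.2, 89.5, 34.4, 34.7 and 61.3 CPM in wild-type mice and at 49.7, 23.1, 64.4, 53.3 and 56.2 CPM in transgenic mice. Its log2 fold change was -0.04 with an interval from -0.71 to 0.63, the widest of these 7 genes, and the spread among wild-type libraries, with library 2 highest, was larger than the difference between the group means.

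Superoxide dismutases turn superoxide into hydrogen peroxide, and none of the 3 passed the test. Sod2, the manganese enzyme of mitochondria, was at 202, 170, 189, 221 and 209 CPM in wild-type mice and at 161, 163, 172, 158 and 180 CPM in transgenic mice. Transgenic libraries 1, 2 and 4 lay below every wild-type library, and libraries 3 and 5 lay above wild-type library 2 alone. For Sod2 this came to a log2 fold change of -0.25 ± 0.10 (SE, adjusted p = 0.206 by edgeR), with an interval from -0.47 to -0.03, and the DESeq2 adjusted p was 0.0765. Sod1, the cytosolic copper-zinc enzyme, was between 58.3 and 76.1 CPM and between 57.3 and 82.8 CPM, with a log2 fold change of 0.01 and an interval from -0.25 to 0.27, and it overlaps Scaf4 on the opposite strand. Sod3, the extracellular enzyme, was between 3.03 and 6.77 CPM and between 3.21 and 7.72 CPM, with a log2 fold change of 0.39 ± 0.26 (SE, adjusted p = 0.476 by edgeR).

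The metallothioneins varied more among libraries than any other of the 34 genes. Mt1 was at 38.7, 55.5, 11.7, 10.996 and 13.1 CPM in wild-type mice and at 24.6, 17.3, 58.3, 43.6 and 35.1 CPM in transgenic mice. Mt2 was at 13.0, 20.7, 4.99, 3.71 and 7.08 CPM in wild-type mice and at 13.2, 7.26, 25.9, 27.9 and 18.1 CPM in transgenic mice. In both genes wild-type libraries 1 and 2 stood above the other 3 of their group, transgenic library 2 was the lowest of its group, and the ranges overlapped. Wild-type libraries 1 and 2 also had the largest shares of counts in the rows Lars2, Gm15564 and Gm15662, at 33.9% and 29.3%. A link between these shares and the metallothionein levels was not tested. The coefficients of variation were 77.6% and 44.98% for Mt1 and 70.8% and 46.7% for Mt2, in wild-type mice and the transgenic group. The log2 fold change of Mt1 was 0.47 ± 0.46 (SE, adjusted p = 0.667 by edgeR), with an interval from -0.53 to 1.47. That of Mt2 was 0.92 ± 0.45 (SE, adjusted p = 0.302 by edgeR), with an interval from -0.05 to 1.89, so neither no change nor a 3-fold rise lay outside it. Mt2 had the highest log2 fold change of the 34 genes and still missed the threshold.

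Mt1 and Mt2 moved together from library to library. After the group mean was removed, their log2 CPM over 10 libraries had Pearson r = 0.958 (exact permutation p = 0.000208, adjusted 0.00125) and Spearman rho = 0.952 (adjusted p = 0.00333), with libraries permuted within groups in all 14400 ways and adjustment over 6 pairs. Without wild-type libraries 1 and 2, the farthest from the median of Mt1, r was 0.927. The other 5 pairs did not pass: r was 0.539 for Gclc and Gclm, 0.224 for Txn1 and Txnrd1, 0.426 for Nfe2l2 and Nqo1, 0.677 for Sod2 and Prdx3 and 0.613 for Gstm1 and Gstm2, with adjusted exact permutation p from 0.183 to 0.518. Mt2 and Mt1 are neighbours on chromosome 8, from 94172664 to 94173568 and from 94179082 to 94180327, and Mt3 lies nearby, from 94152607 to 94154146 (GRCm38).

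Metallothionein genes are induced by zinc through MTF1, which binds metal response elements, so the core TGCACNC or TGCGCNC was sought on both strands of the same promoter windows. It was found in 9 of the 28 genes with an entry (32.1%), as in 28.2% of all genes and 25.7% of all promoters. Both metallothioneins were among the 9. Their matches are shown 5′ to 3′ on the plus strand of GRCm38.p6, from RefSeq, with the cores in capitals:
Mt2, chr8:94172480-94172587: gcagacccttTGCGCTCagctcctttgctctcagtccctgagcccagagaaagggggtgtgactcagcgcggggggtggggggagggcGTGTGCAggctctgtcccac
Mt1, chr8:94179039-94179081: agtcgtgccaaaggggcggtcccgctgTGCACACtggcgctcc
The Mt2 stretch holds 2 such cores, the first along the gene and the other along the opposite strand. The antioxidant response element core of Mt2 shown earlier lies between them. The Mt1 stretch holds 1 core close to the start of the gene.

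Levels per length give an order of the genes within this muscle that depends on the annotated length. That length covers all annotated exons of a gene merged, and the length of the transcripts present in muscle was not measured. For Gpx1 and Mt1 it equals the whole span of the gene. In wild type, Txnip was the most abundant of the 34 genes, at 229.5 CPM per kilobase of merged exons, followed by Prdx3 at 72.3, Gpx4 at 61.6, Gstm1 at 41.7, Gpx3 at 33.3 and Prdx1 at 32.0 CPM per kilobase. Gpx1 was at 24.8 in wild-type mice and 43.7 in transgenic mice, where it passed the levels per length of Gstm1, Gpx3 and Prdx1. Among mitochondrial proteins, Sod2 was at 19.8 CPM per kilobase, and Txn2 and Txnrd2, the thioredoxin that serves Prdx3 and its reductase, were at 10.03 and 1.62. Nqo1 and Hmox1 were at 6.52 and 4.29 CPM per kilobase. The lowest were Sod3 at 1.15, Gss at 0.837 and Slc7a11 at 0.166 CPM per kilobase. In wild-type mice Sod2, with 10.008 kilobases of merged exons, had a mean of 198 CPM. Prdx3, with 1.478 kilobases, had a mean of 107 CPM and still stood above Sod2 per length. The values per length order genes within the groups under this choice of length and were not tested.

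**Figure D4:**
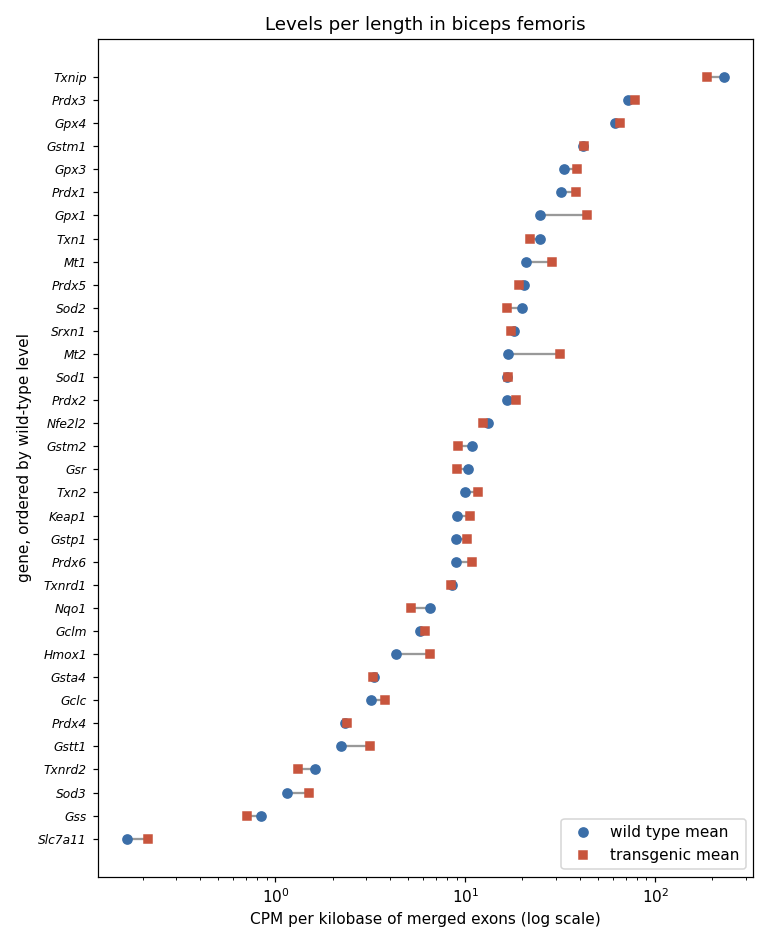
Mean CPM per kilobase of merged exons of the 34 genes on a log axis, wild type as blue circles and transgenic as orange squares, ordered by the wild-type level. Levels run from 0.166 for Slc7a11 to 229.5 for Txnip in wild-type mice, and the symbols of most genes lie close together beside that range.

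A list of 103 further redox genes was set beside the 34, and 94 of the 96 found in the table could be tested. Of these 94, 2 rose and 0 fell: Msra, which repairs oxidised methionine, and Mt3, a metallothionein best known from brain. The median log2 fold change of the list was 0.06. At an unadjusted p under 0.05 there were 18 of the 94, 12 higher and 6 lower, and these shares are near the backgrounds given above. The groups of libraries did not overlap for 5 of the 94, all higher: Msra, Mt3, Nxn, Rbx1 and Blvra. Over all genes tested, 5.14% did so in that direction, so this count too is near the background. DESeq2 called 8 of the 94, against 7.90% of all genes tested, adding Nxn, Gstm4 and Rbx1 as higher and Gstp2, Msrb1 and Me3 as lower. The authors' deposited table calls 3 of the 96, Nxn beside Msra and Mt3, against 7.29% of its genes. Nxn, Gstm4, Rbx1, Blvra, Gstp2, Msrb1 and Me3 are named after their values were seen.

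Msra rose 3.20-fold. It was at 9.45, 5.42, 8.05, 8.59 and 8.16 CPM in wild-type mice and at 23.2, 21.7, 31.6, 23.8 and 26.9 CPM in transgenic mice. Each transgenic library was more than 10 CPM above the highest wild-type library. The mean was 7.93 ± 1.51 CPM and 25.4 ± 3.91 CPM (SD, n = 5 each), a log2 fold change of 1.68 ± 0.15 (SE, adjusted p = 3.81e-05 by edgeR) and an interval from 1.35 to 2.005. With the hepatocyte covariate it was 1.67 ± 0.25 (SE, adjusted p = 0.00951 by edgeR), and it passed the threshold under every alternative run. Msra lies on chromosome 14 from 64122625 to 64455903 (GRCm38). The related Msrb1, a selenoprotein that repairs the other form of oxidised methionine, was at 60.8 ± 2.86 CPM in wild-type mice and 46.5 ± 8.74 CPM in transgenic mice (SD, n = 5 each), a log2 fold change of -0.39 ± 0.13 (SE, adjusted p = 0.107 by edgeR).

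Mt3 rose 3.31-fold from a very low level. It was at 0.394, 0.847, 0.333, 1.497 and 1.52 CPM in wild-type mice and at 3.23, 2.56, 4.49, 3.31 and 1.61 CPM in transgenic mice, which is 5 to 71 counts per library. The groups did not overlap, but transgenic library 5 lay just above the highest wild-type library. The log2 fold change was 1.72 ± 0.40 (SE, adjusted p = 0.0235 by edgeR), with an interval from 0.85 to 2.60. The adjusted p was 0.0667, 0.0711 or 0.0670 without wild-type library 1, 2 or 3, 0.0549 without transgenic library 4, 0.0588 without transgenic libraries 1 and 2, and 0.131 with the hepatocyte covariate, so the call was lost in each of these fits. The log2 fold change was 2.23 ± 0.60 (SE) with the covariate and ran from 1.45 to 1.98 with each library left out in turn.

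**Figure D5:**
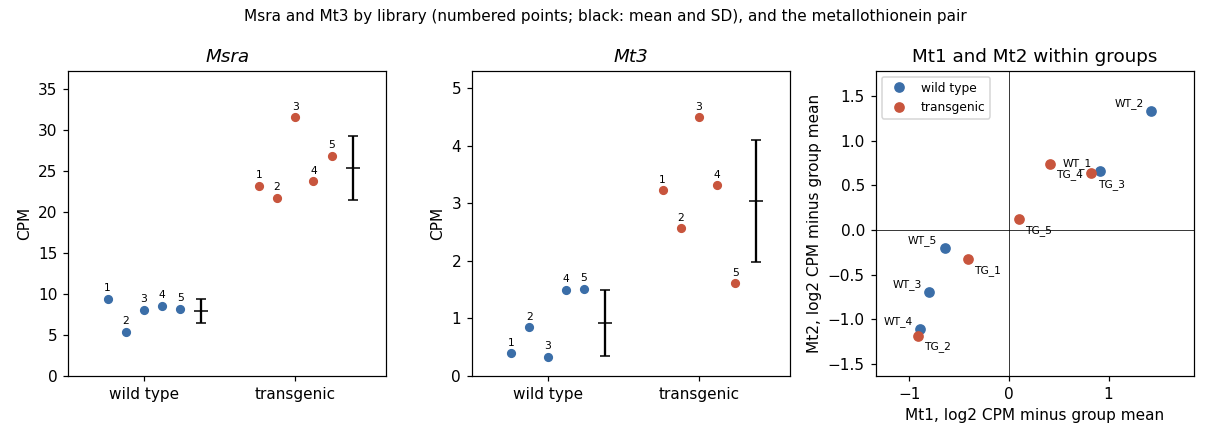
Msra and Mt3 in CPM by library (left and centre, numbered points, mean and SD in black), and Mt2 against Mt1 as log2 CPM minus the group mean (right, 1 point per library). The Msra groups are far apart, Mt3 of transgenic library 5 is close to wild type, and the Mt1 and Mt2 points lie along a line with r = 0.958.

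The partners in NADPH supply and peroxide removal that the naming rule adds did not pass. Cat, the peroxisomal catalase, was between 145 and 256 CPM in wild-type mice and between 148 and 269 CPM in transgenic mice, with a log2 fold change of 0.13 ± 0.20 (SE, adjusted p = 0.802 by edgeR). Nnt, the mitochondrial transhydrogenase that makes NADPH, was between 13.4 and 26.5 CPM and between 13.8 and 22.1 CPM, with a log2 fold change of -0.10 (edgeR adjusted p = 0.840). C57BL/6J mice are known to carry a deletion inside Nnt, so counts per gene do not measure intact transcript. G6pdx, which feeds the pentose phosphate pathway, was between 2.80 and 7.56 CPM and between 3.22 and 8.95 CPM, with a log2 fold change of 0.22 ± 0.32 (SE, adjusted p = 0.780 by edgeR), and it overlaps Ikbkg on the opposite strand.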

How the data were processed

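RNA-seq reads per gene were analysed for 10 libraries, 5 per group. The submitters' processing notes name HTSeq 0.6.1, TopHat2 2.1, SAMtools 1.2, Bowtie2 2.2.6 and DESeq2 1.10 on build GRCm38.p4. How reads were counted, whether by strand and on which annotation is not given in the sources used here. Reads that fall where genes overlap can therefore not be assigned, and 7 of the 34 genes overlap another tested gene. The deposited table holds raw counts, and beside them the authors' mean signal, log2 fold change, Wald score and p-values, whose adjustment may cover more genes than the 15883 used here. Of its gene names, 23 had been turned into dates. The columns give the group of each library and no mouse, and the labels say that 5 mice were used per group.

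Here edgeR 4.0.16 in R 4.3.3 was run on the counts: filterByExpr kept 13338 genes, TMM gave the scaling, and glmQLFit with glmQLFTest compared the groups without covariates, with Benjamini-Hochberg adjusted p-values and a threshold of 0.05. Standard errors come from the log2 fold change and the F statistic, and for log2 CPM the prior count was 2. The test was tried on simulated counts, where it called 10 of 50 genes changed 1.5-fold and 43 of 50 changed 2-fold. The simulated spread followed the trend over all genes and not each gene's own spread, so genes as variable as Mt1 and Mt2 were not represented. Some changes of 2-fold were missed even so, and a gene that did not pass may therefore still differ. Coordinates and exon lengths come from GENCODE release M21. The rule for naming genes takes all 34, gives every library for called genes and for Mt1, Mt2, Txnip, Nfe2l2, Keap1, Nqo1 and Hmox1 (Gstt1, Prdx1, Prdx6, Srxn1 and Sod2 were given so after their values were seen), and adds called redox genes, Cat, Nnt, G6pdx, Zfp407 and 5 markers (Alb, Hbb-bs, Ptprc, Ckm and Acta1). Ptprc, the pan-leukocyte marker, was between 7.58 and 14.0 CPM in wild-type mice and between 7.34 and 60.5 CPM in transgenic mice. The slow fibre markers took 0.0395% to 0.172% and 0.0593% to 0.136% of counts, and the adipocyte markers 0.207% to 0.344% and 0.252% to 0.439%, with none past the test. The 34 genes and all lists were chosen with earlier results of these data known. The alternatives covered DESeq2 1.42.0, size factors and filters other than the main ones, a threshold of 0.1, the p-values the authors deposited, a hepatocyte covariate, leaving out the rows Lars2, Gm15564 and Gm15662 (9.62% to 33.9% of counts), and leaving out libraries singly or in pairs.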

Additional observations from a re-analysis of the deposited data

Results flagged for a closer look

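In 8 of 68 groups of 5 libraries, 1 library lay far from the other 4. For independent, normally distributed values the rule would mark about 1 in 20 groups. These groups share their libraries, and the share marked over all genes tested was not counted. Transgenic library 3 was high in Gpx4 (165 CPM, the others 93.1 to 106), Prdx3 (134 CPM, the others 108 to 115), Prdx5 (58.7 CPM, the others 32.9 to 38.6) and Sod1 (82.8 CPM, the others 57.3 to 64.3). The same library had the highest Acta1 and Ckm of all 10 libraries. Transgenic library 1 was high in Txn1 (28.3 CPM, the others 20.7 to 22.6). In wild type, library 2 was high in Hmox1 (11.8 CPM, the others 5.43 to 7.15), library 5 in Gclc (16.5 CPM, the others 10.6 to 11.4) and library 1 in Gss (6.46 CPM, the others 4.32 to 4.84).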

How the results depend on the processing

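Of 680 values of the 34 genes over 20 alternatives, 630 kept their direction and side of the threshold. Of the rest, 48 reversed, all for genes that were not called, Hmox1 passed without wild-type library 2, and Gpx1 missed with the hepatocyte covariate. The count of the 34 called higher was 0 with that covariate, a fit that called 75 genes in all, and 1 to 2 with each library left out. Further redox genes called higher numbered 5 with DESeq2, 1 with the covariate, 6 at an adjusted p of 0.1 and 1 to 3 with each library left out (1 where wild-type library 1, 2 or 3 or transgenic library 4 was missing, and 3 without transgenic library 1 or 3, adding Nxn). Those called lower numbered 3 with DESeq2, 1 at an adjusted p of 0.1 (Gstp2) and 0 to 4 with each library left out (4 without transgenic library 3: Gstm5, Gstp2, Msrb1 and Me3).

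Over all genes, the count of higher calls was 342 without wild-type library 3, and the count of lower calls was 315 with DESeq2, 307 at an adjusted p of 0.1, 352 without transgenic library 3, 92 without wild-type library 5, also 92 where transgenic library 4 was missing, and 56 when transgenic libraries 4 and 5 were both left out. The authors' deposited table calls 876 higher and 282 lower.

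Log2 fold changes that reversed without transgenic libraries 1 and 2 were 0.010 for Nfe2l2, -0.018 for Slc7a11, 0.10 for Gsta4, 0.11 for Txnrd1, 0.19 for Srxn1 and -0.21 for G6pdx. With the covariate they were 0.040 for Nqo1, -0.47 for Gclc, -0.35 for Gclm, 0.19 for Gstm2, 0.10 for Txnip, 0.14 for Prdx5 and -0.051 for Cat. That covariate goes with the group, so these values do not separate hepatocyte RNA from genotype. Without transgenic libraries 4 and 5 they were -0.026 for Gclc, -0.15 for Gclm and 0.035 for Prdx5. Without the rows Lars2, Gm15564 and Gm15662 they were -0.011 for Gstm1 and -0.020 for Sod1, and Sod1 was at -0.0017 with DESeq2 and with its size factors. With each library left out the ranges that crossed 0 were -0.050 to 0.25 for Gclm, -0.19 to 0.10 for Gsta4, -0.092 to 0.084 for Gstm1, -0.10 to 0.14 for Gpx4, -0.095 to 0.077 for Txnrd1, -0.019 to 0.10 for Prdx4, -0.18 to 0.24 for Srxn1, -0.087 to 0.055 for Sod1, -0.21 to 0.0094 for Nnt and -0.048 to 0.44 for G6pdx. The correlation was -0.112 for Txn1 and Txnrd1 and -0.187 for Nfe2l2 and Nqo1 without the 2 libraries farthest from the median. The cause was not tested. No paired analysis was possible because the labels share no replicate numbers between the groups. Mt3 had as few as 5 counts in a library.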
